A study of Mus musculus with 6 samples.

Results

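The cyclin-dependent kinase inhibitors described here are the products of Cdkn1a, Cdkn1b, Cdkn2a, Cdkn2b, Cdkn2c and Cdkn2d, chosen by gene name as all probe sets of these 6 genes. They are 6 of 21327 gene symbols that the array annotates, and hold 7 of its 28815 probe sets. Expression was measured on 6 one-colour arrays of mouse hematopoietic stem cells (HSC), which renew themselves and give rise to blood. There were 3 arrays of Selp-/- HSC, from C57BL/6 mice that lack the adhesion receptor P-selectin, and 3 arrays of WT HSC, from C57BL/6 mice with the gene intact. The labels number the arrays 1 to 3 within each genotype. Age, the way the Selp allele was made and the surface markers of the sort are not given in the sources used here, nor whether each array had its own mouse. The p-values therefore measure how far these samples spread, possibly for technical reasons. The study asked which genes P-selectin controls in HSC.

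Cyclin-dependent kinase inhibitors hold cells back from entering S phase. The INK4 proteins, encoded by Cdkn2a, Cdkn2b, Cdkn2c and Cdkn2d, bind Cdk4 and Cdk6 and keep cyclin D from activating them, while the Cip/Kip proteins, encoded by Cdkn1a and Cdkn1b, bind cyclin and kinase together and block Cdk2. In HSC of the mouse these genes are known from studies of quiescence, self-renewal and ageing.

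The arrays numbered 3 stood apart from the other 4 in both genotypes. Of 17 tested HSC markers, 13 passed the test of array number with a lower level in number 3. Of 7 tested mast cell and basophil markers, 7 passed it with a higher level in number 3. Of all tested probe sets, 6.72% passed it with a lower and 6.11% with a higher level in number 3. Hlf, a transcription factor of HSC, measured 8.81 in Selp-/- 3 and 8.88 in WT 3, against 12.13, 12.53, 12.45 and 12.37 in Selp-/- 1, Selp-/- 2, WT 1 and WT 2 (log2 level). Mcpt8, a basophil protease, measured 13.95 in Selp-/- 3 and 14.16 in WT 3, and between 9.38 and 9.65 in the other arrays. The median deposited intensity ran from 638 to 713 in Selp-/- and from 563 to 751 in WT arrays. All 6 arrays carry the label HSC, so every comparison of 3 with 3 holds this pair, and results are also given from the arrays numbered 1 and 2 alone.

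No inhibitor passed the test of Selp-/- against WT HSC. The arrays numbered 3 are part of the spread in that test, so it does not show that the genotypes are alike. In the arrays numbered 1 and 2 alone, Selp-/- minus WT was 0.36 (SE 0.14) for Cdkn2d and 0.31 (SE 0.13) for Cdkn2a. The other tested inhibitors lay between -0.080 and 0.085 there, and none passed. The comparison of genotypes with limma called 0 of 6 tested inhibitor probe sets, and the share called among all 17289 tested probe sets was 0%. At an unadjusted p under 0.05 there were 0 of the 6 and 122 of all tested. The 3 values of one genotype lay wholly above or below the other for 0 of the 6, and for 4.21% of all tested probe sets (2.24% with Selp-/- higher and 1.97% with Selp-/- lower). The median difference of the 6, Selp-/- minus WT, was -0.019 on the log2 scale, and that of all tested was 0.0054. Array number held a larger share of the variation than genotype for each of the 6, though it also has more levels. The F-test of array number, which asks whether the 3 numbers differ with genotype in the model, called 2 of the 6, against 12.8% of all tested, of which 6.11% were higher and 6.72% lower in number 3. Those were the probe set annotated with Cdkn1a, higher in the arrays numbered 3, and Cdkn2c, lower in them.

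**Figure D1:**
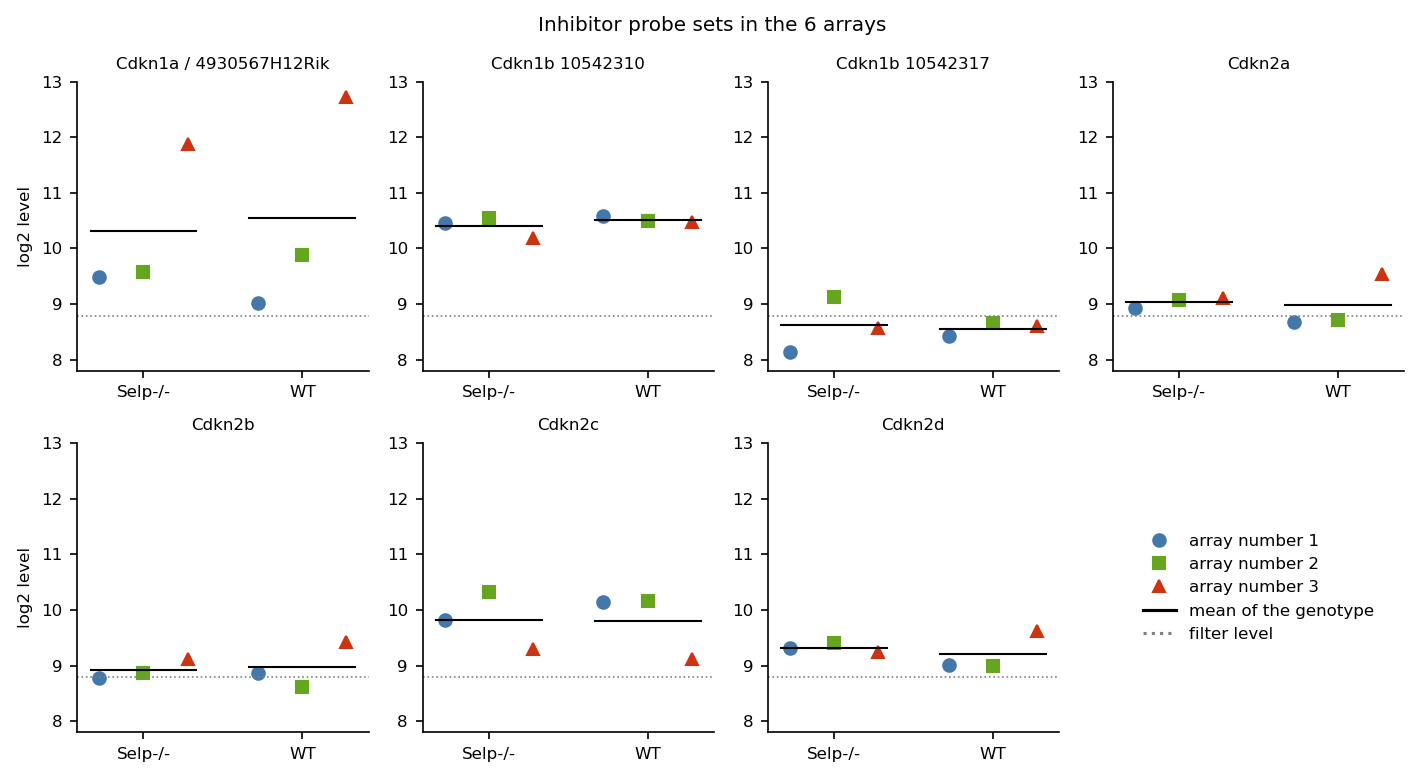
Log2 level (quantile normalized) of each inhibitor probe set in the 3 Selp-/- and 3 WT arrays, with colour and shape for the array number, a black line for the mean of the genotype and a dotted line for the mean level of 8.79 under which probe sets were not tested. The arrays numbered 3 lie highest for the Cdkn1a probe set and lowest for Cdkn2c in both genotypes.

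Among the Cip/Kip genes, Cdkn1a encodes p21, the inhibitor through which the tumour suppressor p53 is known to arrest the cell cycle. Its probe set, 10443463, also carries the symbol 4930567H12Rik, a long non-coding RNA gene that the RefSeq table places on another chromosome. Both RefSeq transcript accessions of the probe set belong to Cdkn1a in that table, and 0 belong to 4930567H12Rik. Since the annotation gives 2 symbols, the values below are those of the shared probe set and are not assigned to one gene. Its deposited intensities were 898.5, 830 and 4387.5 in Selp-/- 1, 2 and 3, against 611, 871.5 and 7654.5 in WT 1, 2 and 3. After normalization the log2 levels were 9.48, 9.57 and 11.89 in Selp-/-, against 9.02, 9.88 and 12.72 in WT HSC. The genotypes overlapped, with both high values in the arrays numbered 3.

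The shared probe set lay 2.81 higher on the log2 scale in the arrays numbered 3 than in the mean of numbers 1 and 2 (SE 0.24, 95% interval 2.24 to 3.38), a ratio of 7.04. The F-test of limma gave an adjusted p of 0.0021. In Selp-/- HSC alone the ratio was 5.13 and in WT HSC alone 9.65. A difference in level at least this large in size was seen for 0.295% of all tested probe sets. Between genotypes the mean was 10.31 ± 1.36 in Selp-/- and 10.54 ± 1.94 in WT HSC (SD, n = 3). The difference was -0.23 (SE 1.05, 95% interval -2.72 to 2.26, adjusted p of 1 by limma). Within the arrays of one number, Selp-/- minus WT was 0.46, -0.31 and -0.84 for numbers 1, 2 and 3, so the sign was not shared. In the arrays numbered 1 and 2 alone the difference was 0.074.

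The shared probe set had the largest difference between array numbers of the 6, so the bases around the starts of Cdkn1a are shown, without assigning the values to that gene. Those of Cdkn2c, whose probe set also passed, follow with its values. The sequences are from RefSeq, build GRCm38.p6, 250 bases before to 50 after a transcript start, 5′ to 3′ on the strand of the gene. Capitals mark every match, on either strand, to 6 motifs, named here with their letters. They were the GC box GGGCGG, the E-box CACGTG, an E2F motif TTTNGCGC, the TATA box TATAAA, a FOXO motif TGTTTAC and a p53 core of CATG, any 6 bases and CATG. Cdkn1a has 2 starts in the table, at chr17:29090729-29091028 and chr17:29093519-29093818, plus strand.
Cdkn1a start 1: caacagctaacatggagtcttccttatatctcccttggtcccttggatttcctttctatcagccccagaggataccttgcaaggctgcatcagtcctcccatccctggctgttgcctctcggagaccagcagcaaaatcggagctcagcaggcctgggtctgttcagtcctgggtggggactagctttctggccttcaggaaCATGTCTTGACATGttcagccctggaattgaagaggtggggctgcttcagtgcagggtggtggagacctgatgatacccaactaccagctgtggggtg
Cdkn1a start 2: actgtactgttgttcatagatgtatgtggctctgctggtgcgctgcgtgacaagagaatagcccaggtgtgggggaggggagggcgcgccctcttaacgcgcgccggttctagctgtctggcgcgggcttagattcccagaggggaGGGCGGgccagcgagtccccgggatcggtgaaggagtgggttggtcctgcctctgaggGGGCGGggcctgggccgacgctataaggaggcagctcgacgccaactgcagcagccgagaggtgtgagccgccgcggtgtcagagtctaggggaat
The window of start 1 held 1 match to the p53 core, beginning 48 bases before the start, and none to the other motifs. That core is found in 0.712% of the 32851 promoter windows of the table. The window of start 2 held 2 GC boxes, a motif of 35.7% of all windows. A match is a description of letters and was not tested for binding.

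Cdkn1b encodes p27, an inhibitor known for its part in the quiescence of blood progenitors. It had 2 probe sets with different patterns. Probe set 10542310 measured 10.46, 10.55 and 10.20 in Selp-/- 1, 2 and 3, against 10.58, 10.50 and 10.48 in WT 1, 2 and 3 (log2 level). Selp-/- 3 was the lowest of the 6 values, and the genotypes overlapped. The means were 10.40 ± 0.18 in Selp-/- and 10.52 ± 0.05 in WT HSC (SD, n = 3), a difference of -0.12 (SE 0.14, 95% interval -0.45 to 0.21, adjusted p of 1 by limma). Array number gave -0.18 for number 3 against numbers 1 and 2 (SE 0.12), and the F-test had an adjusted p of 0.538. This value had the opposite sign, 0.059, when no background correction or normalization was applied.

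Probe set 10542317 of Cdkn1b measured 8.15, 9.14 and 8.58 in Selp-/- 1, 2 and 3, against 8.42, 8.65 and 8.61 in WT 1, 2 and 3. Its mean lay under the level of 8.79 that the filter asked for, so it is not among the 6 tested. When every probe set was tested, it gave 0.059 between the genotypes (SE 0.24, adjusted p of 1 by limma) and an adjusted p of 0.238 for array number. Its spread over the Selp-/- arrays was 0.50 (SD), against 0.12 over the WT arrays. The arrays numbered 3 lay inside the range of the others for this probe set.

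Among the INK4 genes, Cdkn2c encodes p18, which in the mouse is known to limit HSC self-renewal. Its deposited intensities were 1149, 1264 and 804 in Selp-/- 1, 2 and 3, against 1213, 1025 and 765 in WT 1, 2 and 3. The log2 levels were 9.83, 10.32 and 9.30 in Selp-/-, against 10.15, 10.15 and 9.13 in WT HSC. Both arrays numbered 3 lay below all 4 others, and the genotypes overlapped. Number 3 stood at -0.90 relative to the mean of numbers 1 and 2 (SE 0.14, 95% interval -1.22 to -0.57), a ratio of 0.536, with an adjusted p of 0.0161 by the F-test of limma. In Selp-/- HSC alone the ratio was 0.585 and in WT HSC alone 0.492. The call rested on single arrays, since the adjusted p was 0.0503 without Selp-/- 2, 0.0522 without WT 2 and 0.0939 without WT 3, with differences of -0.85, -0.97 and -0.78.

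Between genotypes Cdkn2c averaged 9.81 ± 0.51 in Selp-/- and 9.81 ± 0.59 in WT HSC (SD, n = 3), a difference of 0.0034 (SE 0.36, 95% interval -0.84 to 0.85, adjusted p of 1 by limma). The interval spans ratios from 0.557 to 1.80. Within array numbers the difference was -0.32, 0.16 and 0.17 for numbers 1, 2 and 3. Cdkn2c has 2 starts in the RefSeq table, at chr4:109666707-109667006 and chr4:109665323-109665622, minus strand, shown as above with matches in capitals.
Cdkn2c start 1: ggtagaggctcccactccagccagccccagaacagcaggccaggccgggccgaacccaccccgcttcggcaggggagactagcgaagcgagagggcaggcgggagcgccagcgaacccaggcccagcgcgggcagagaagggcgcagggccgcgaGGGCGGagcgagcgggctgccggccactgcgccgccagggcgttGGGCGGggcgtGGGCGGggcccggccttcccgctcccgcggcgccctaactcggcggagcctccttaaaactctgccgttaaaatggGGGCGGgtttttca
Cdkn2c start 2: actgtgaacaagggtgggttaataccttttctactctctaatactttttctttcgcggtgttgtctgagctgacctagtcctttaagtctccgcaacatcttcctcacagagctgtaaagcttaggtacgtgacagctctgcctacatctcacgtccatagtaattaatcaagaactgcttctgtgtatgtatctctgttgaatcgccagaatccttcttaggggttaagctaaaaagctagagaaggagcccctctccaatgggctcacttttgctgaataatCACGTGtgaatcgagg
The window of start 1 held 4 GC boxes, and that of start 2 held 1 E-box, a motif of 7.15% of all windows.

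Cdkn2a and Cdkn2b are neighbours on chromosome 4, at 89274473 to 89294619 and 89306289 to 89311032 in GRCm38.p6. Cdkn2b encodes p15. Cdkn2a encodes p16 and, from another start and reading frame, p19Arf, which stabilises p53 by holding Mdm2. Cdkn2a has 2 starts in the RefSeq table and a single probe set on the array, so its values are not assigned to p16 or p19Arf. Cdkn2a measured 8.94, 9.07 and 9.11 in Selp-/- 1, 2 and 3, against 8.68, 8.72 and 9.55 in WT 1, 2 and 3 (log2 level). Cdkn2b measured 8.78, 8.88 and 9.12 in Selp-/-, against 8.87, 8.62 and 9.42 in WT HSC. For both genes WT 3 was the highest array and Selp-/- 3 the next, and the lower values lay near the filter level.

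Neither gene passed the F-test of array number in limma. Number 3 against numbers 1 and 2 gave 0.48 for Cdkn2a (SE 0.17, adjusted p of 0.207) and 0.48 for Cdkn2b (SE 0.14, adjusted p of 0.115). The difference was 0.11 in Selp-/- and 0.85 in WT HSC for Cdkn2a, and 0.29 and 0.67 for Cdkn2b. Without Selp-/- 3 the value of Cdkn2a was 0.85 and its adjusted p 0.0304. Between genotypes Cdkn2a averaged 9.04 ± 0.09 in Selp-/- and 8.98 ± 0.49 in WT HSC (SD, n = 3), a difference of 0.059 (SE 0.24). Cdkn2b averaged 8.93 ± 0.17 in Selp-/- and 8.97 ± 0.41 in WT HSC, a difference of -0.042 (SE 0.21), and both had an adjusted p of 1 by limma. In the arrays numbered 1 and 2, Selp-/- minus WT was 0.25 and 0.36 for Cdkn2a, and in those numbered 3 it was -0.43.

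Cdkn2d encodes p19Ink4d, an inhibitor of Cdk4 and Cdk6 distinct from p19Arf. It measured 9.31, 9.41 and 9.24 in Selp-/- 1, 2 and 3, against 9.02, 8.99 and 9.61 in WT 1, 2 and 3 (log2 level). Selp-/- 3 was the lowest of its genotype and WT 3 the highest of its own. The F-test of array number gave an adjusted p of 0.562 in limma, with 0.25 for number 3 against numbers 1 and 2 (SE 0.17). Between genotypes Cdkn2d averaged 9.32 ± 0.08 in Selp-/- and 9.21 ± 0.35 in WT HSC (SD, n = 3), a difference of 0.11 (SE 0.18, 95% interval -0.32 to 0.55, adjusted p of 1 by limma). Within the numbers it was 0.29, 0.42 and -0.37, so the 2 pairs other than number 3 shared a sign that number 3 did not.

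**Figure D2:**
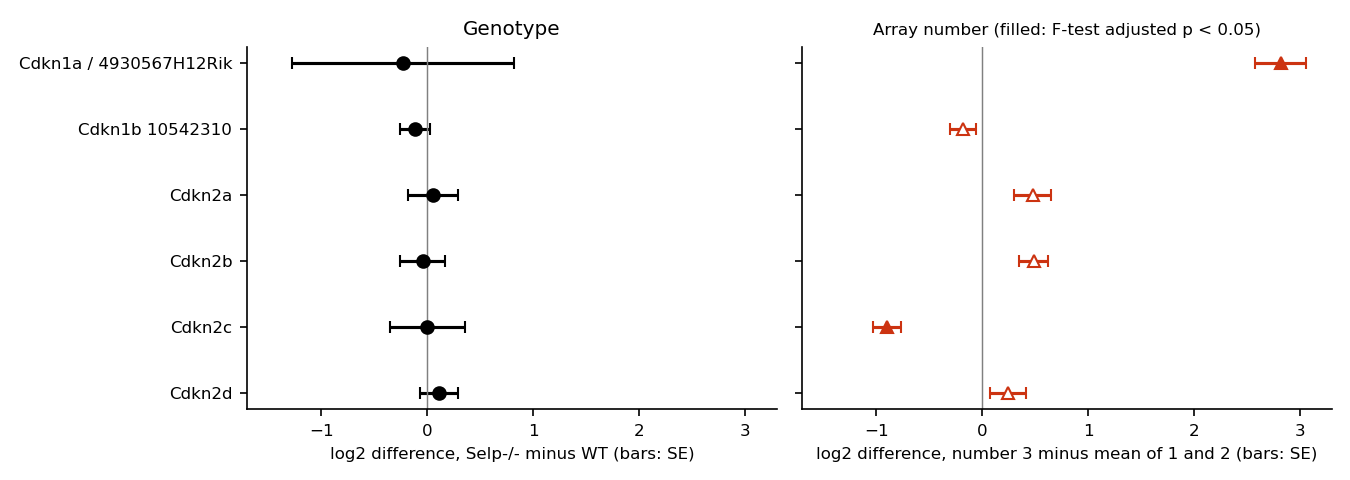
Log2 differences of the 6 tested inhibitor probe sets, Selp-/- minus WT on the left and arrays numbered 3 minus the mean of numbers 1 and 2 on the right, with bars for the SE of the limma fit. All genotype differences lie between -0.23 and 0.11, while the filled points on the right, past the F-test of array number, are the Cdkn1a probe set at 2.81 and Cdkn2c at -0.90.

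**Figure D3:**
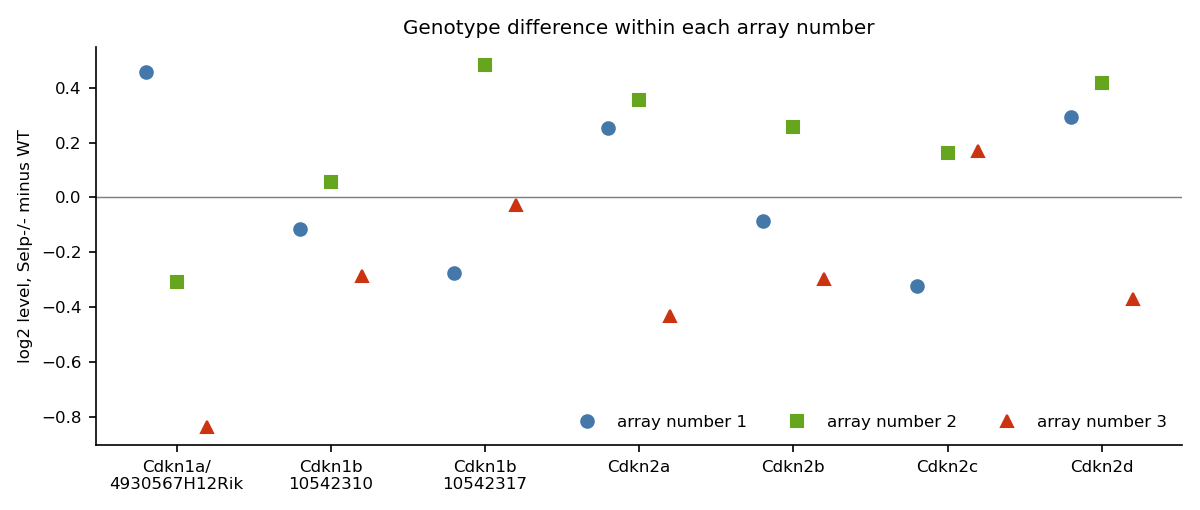
Selp-/- minus WT log2 level within the arrays of each number, for the 7 inhibitor probe sets. No probe set has 3 points on one side of 0, and Cdkn2a and Cdkn2d have numbers 1 and 2 above 0 and number 3 below.

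Deviations from the genotype means were shared between the arrays numbered 3 (correlation 0.81). Numbers 1 and 2 were not told apart, since Selp-/- 1 gave 0.43 with WT 1 and 0.51 with WT 2. Genotype was also fitted with the number as a replicate block. That fit called 0 of the 6 inhibitor probe sets and 0% of all tested, with 0 of the 6 and 630 of all tested at an unadjusted p under 0.05. It lowered the SE of the shared Cdkn1a probe set to 0.23 and that of Cdkn2c to 0.13, and their adjusted p stayed at 0.983 and 0.998. In the arrays numbered 1 and 2 alone, limma called 4 of 17289 probe sets and 0 of the 6. There the difference was 0.36 (SE 0.14) for Cdkn2d, 0.31 (SE 0.13) for Cdkn2a, 0.085 for Cdkn2b, 0.074 for the shared Cdkn1a probe set, -0.030 for Cdkn1b 10542310 and -0.080 for Cdkn2c, none with an adjusted p under 0.05 by limma.

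Of the sum of squares of each probe set over the 6 arrays, array number held 95.5% for the shared Cdkn1a probe set, 93.4% for Cdkn2c and 79.8% for Cdkn2b. It held 62.1% for Cdkn2a, 47.6% for Cdkn1b 10542310 and 29.4% for Cdkn2d, beside a median of 65.8% over all tested probe sets. Genotype held at most 21.3%, for Cdkn1b 10542310, beside a median of 6.11%. For Cdkn2d the remainder held the most, 63.7%. The shares are not adjusted for array number having more levels than genotype, which raises its share even without an effect. Both arrays numbered 3 lay above all 4 others for 3 of the 6 (the shared Cdkn1a probe set, Cdkn2a and Cdkn2b) and below them for Cdkn2c, against 20.1% and 25.1% of all tested. Together these were 4 of the 6, beside 45.2% of all tested. Cdkn2b passed the filter only with the arrays numbered 3 in its mean, so its high values there are no separate result. The median difference of the 6, number 3 against numbers 1 and 2, was 0.36, beside -0.013 over all tested.

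**Figure D4:**
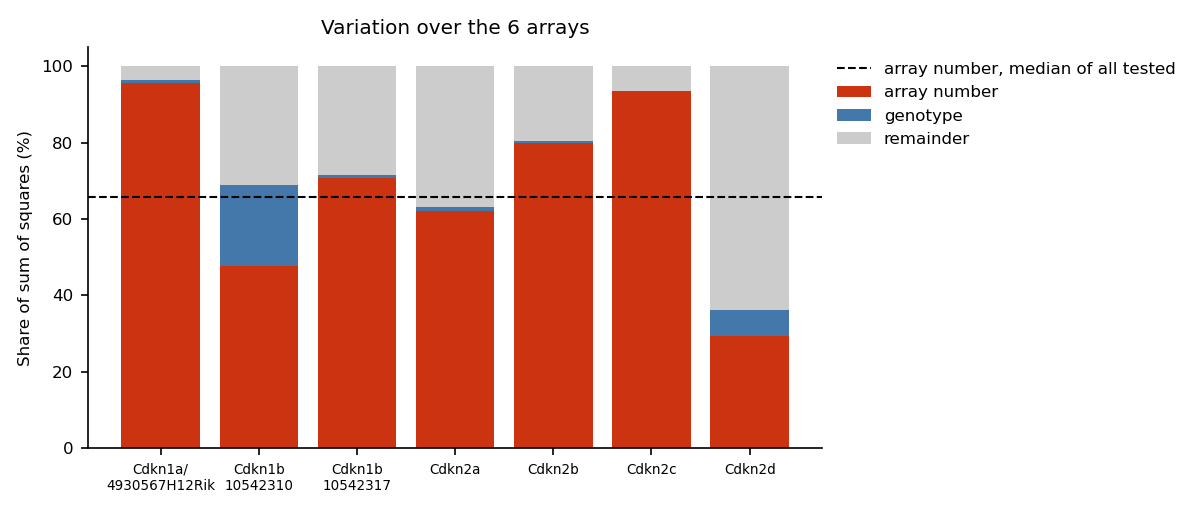
Share of the sum of squares over the 6 arrays held by array number, genotype and the remainder, for each inhibitor probe set, with a dashed line at 65.8%, the median share of array number over all tested probe sets. Array number holds 95.5% for the Cdkn1a probe set, 93.4% for Cdkn2c and 29.4% for Cdkn2d.

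The partners of the inhibitors were taken from 7 lists with 141 genes, of which 133 were tested. Between genotypes limma called 0 of the 133, with 0 at an unadjusted p under 0.05 and 0 with the replicate block. Their median difference was 0.018, beside 0.0054 over all tested. By array number 26 of the 133 passed, or 19.5%, beside 12.8% of all tested, with 15 higher and 11 lower in number 3. The list of 34 tested regulators of the inhibitor genes held 7 of the higher and 7 of the lower calls. Each other list held at most 2 higher and 2 lower calls, so the share over all partners rested largely on the regulators. Gfi1, Id1, Cebpa, Egr1 and Hes1 are named below by the rule for named genes. The other regulators were picked with their values in view, Mdm2 for its role, the polycomb genes as a family and the rest because they passed.

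Of the list of cyclins and kinases, 2 of 19 passed by array number, beside 12.8% of all tested. Ccne1, the cyclin that activates Cdk2, measured 10.28 in Selp-/- 3 and 10.45 in WT 3, against 10.55, 9.51, 10.51 and 9.66 in Selp-/- 1, Selp-/- 2, WT 1 and WT 2, so it was the arrays numbered 2 that lay low. Ccna2, the cyclin of S phase and G2, passed likewise with number 3 at 0.076 relative to numbers 1 and 2 (SE 0.11). Cdk6, a target of the INK4 proteins, gave -0.52 (SE 0.12) and did not pass, with an adjusted p of 0.0589 by the F-test of limma. Between genotypes Cdk4 gave 0.16 (SE 0.15) and Cdc25a, a phosphatase that activates Cdk2, 0.20 (SE 0.14), and neither passed.

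Of the Rb and E2F genes downstream of the kinases, 3 of 15 passed, beside 12.8% of all tested. Rb1, the retinoblastoma protein that cyclin D kinases phosphorylate, lay 0.87 higher in number 3 (SE 0.12), and E2f2, a transcription factor that Rb restrains, 0.47 higher (SE 0.11). Tfdp2, a dimer partner of E2F, stood at -1.34 (SE 0.13), with 9.49 in Selp-/- 3 and 9.17 in WT 3, and between 10.60 and 10.78 in the other arrays. Of 16 genes of the turnover list, most of them parts or partners of ubiquitin ligases, 2 passed. They were Dtl, the substrate receptor of a ligase for p21, at -0.62 (SE 0.12), and Ubac1, a subunit of a ligase for p27, at -0.041 (SE 0.11). Cdc34, the ubiquitin-conjugating enzyme that acts on p27, gave 0.56 (SE 0.15) and did not pass, with an adjusted p of 0.102 by the F-test of limma. Ubac1 measured 9.73 in Selp-/- 3 and 9.64 in WT 3, against 10.08, 9.26, 10.11 and 9.47 in Selp-/- 1, Selp-/- 2, WT 1 and WT 2, so its numbers 1 and 2 lay to either side of number 3.

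Of 34 tested regulators of the inhibitor genes, 14 passed by array number, 7 higher and 7 lower in number 3, beside 12.8% of all tested. The list held 7 genes of the polycomb complexes, which are known to silence Cdkn2a and Cdkn2b, and 3 of them passed. Ezh2, the histone methyltransferase, stood at -0.59, Rnf2, the ubiquitin ligase, at -0.61 and Cbx7, a reader of the methyl mark, at -0.59. The 4 that did not pass gave -0.56 for Bmi1, -0.25 for Eed, -0.088 for Ring1 and -0.011 for Suz12. Among the other regulators lower in number 3, Mycn stood at -1.28, Myc, a repressor of Cdkn1a and Cdkn2b, at -0.64, Smad3, the TGF-beta effector, at -1.14 and Kmt2a, a histone methyltransferase of HSC, at -0.93. Among the higher ones, Gfi1, a transcriptional repressor, stood at 1.19 (SE 0.10) and Id1, an antagonist of E proteins, at 1.17 (SE 0.10). Cebpa, a transcription factor of myeloid cells that acts with p21, stood at 1.11 (SE 0.12). Runx1, Ets1, Spi1 and Klf4 stood at 0.93, 0.95, 0.60 and 0.58. Mdm2, itself a p53 target, gave 0.48 (SE 0.19) with an adjusted p of 0.253 by the F-test, and did not pass.

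Genes of the cycle itself were compared in the same way, beside the 12.8% of all tested that passed by array number. Of 24 tested S phase genes, 2 passed, Rrm2, a subunit of ribonucleotide reductase, at 0.52 and Fen1, a flap endonuclease, at 0.42. Fen1 measured 9.68, 9.32 and 9.95 in Selp-/- 1, 2 and 3, against 9.80, 9.29 and 9.92 in WT 1, 2 and 3. For Rrm2 and Fen1 alike, number 2 was lowest and number 3 highest in each genotype. The median of the list was -0.20, with 3 of 24 above 0, beside 8303 of the 17289 tested. Of 22 genes of G2 and mitosis 3 passed, Plk1 at 0.45, Hmmr at 0.36 and Mki67, the proliferation marker, at -0.54, and the median was 0.018. Plk1 measured 11.61, 10.83 and 11.63 in Selp-/- 1, 2 and 3, against 11.28, 10.92 and 11.59 in WT 1, 2 and 3. Hmmr measured 9.93, 9.24 and 9.86 in Selp-/-, against 9.68, 9.27 and 9.93 in WT HSC. For both it was the arrays numbered 2 that lay lowest. Mki67 measured 11.60 in Selp-/- 3 and 11.51 in WT 3, against 12.32, 11.83, 12.15 and 12.06 in Selp-/- 1, Selp-/- 2, WT 1 and WT 2. Cdkn1c, the remaining Cip/Kip gene, gave 0.19 (SE 0.10), and Cdkn3, a phosphatase of Cdk2, 0.051 (SE 0.10), and neither passed. Mcm7, a subunit of the replicative helicase, gave -0.49 (SE 0.11, adjusted p of 0.0540 by the F-test of limma), and Cdkn2aip, a binding partner of p19Arf, -0.36 (SE 0.14).

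The partner genes with the smallest genotype p in each list had small differences, all with an adjusted p of 1 by limma. Selp-/- minus WT was 0.26 (SE 0.18) for Cul4b, a ligase scaffold, 0.14 for its adaptor Ddb1, 0.15 for E2f8, a repressor of the E2F family, and 0.11 for Lin54, a subunit of the DREAM repressor complex. It was -0.28 (SE 0.25) for Egr1 and 0.12 for Hes1, transcription factors known to act on Cdkn1a or Cdkn1b in other settings. Cdt1, a replication licensing factor, gave 0.19, Rpa2, a single-strand binding protein, 0.17, Cdc20, which activates the ligase that starts anaphase, 0.22 and the spindle checkpoint kinase Ttk 0.17.

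**Figure D5:**
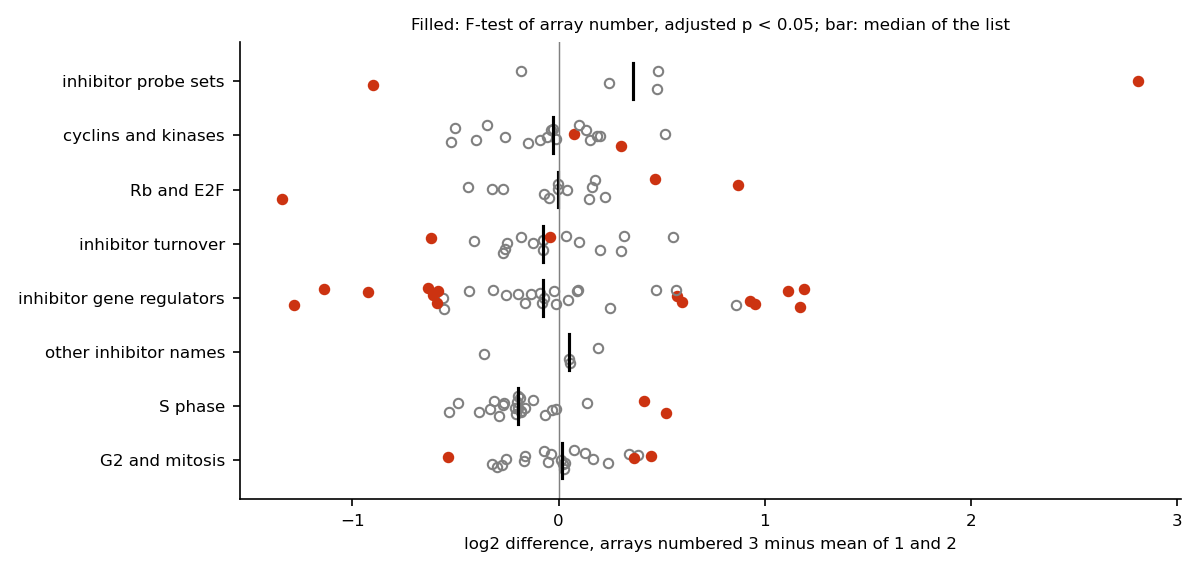
Log2 difference, arrays numbered 3 minus the mean of numbers 1 and 2, of each tested gene in the inhibitor set and 7 partner lists, filled where the F-test of array number had an adjusted p under 0.05, with a bar at the median of the list. The Cdkn1a probe set at 2.81 lies beyond every partner gene, and the partner genes run from Tfdp2 at -1.34 to Gfi1 at 1.19.

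Markers of other cells moved with array number beside the inhibitors. Of all tested probe sets, 6.11% passed higher and 6.72% lower in number 3. The summed linear level of the 7 tested mast cell and basophil markers was 43690 in Selp-/- 3 and 58828 in WT 3, and between 4031 and 5063 in the other arrays. Monocyte markers passed higher for 6 of 9 tested, with sums of 31552 in Selp-/- 3 and 20310 in WT 3, and from 9717 to 10117 in the others. Neutrophil markers passed higher for 10 and lower for 2 of 15, with sums of 90259 and 89166 in Selp-/- 3 and WT 3. Their sums were 60457 and 53779 in Selp-/- 1 and WT 1, and 26245 and 28027 in Selp-/- 2 and WT 2. The 17 HSC markers summed to 19127 in Selp-/- 3 and 21808 in WT 3, and to between 38280 and 47774 in the others. Erythroid markers passed lower for 5 of 8, with sums of 4972 and 6406 in Selp-/- 3 and WT 3. Their sums were 32385 and 31863 in Selp-/- 1 and WT 1, and 15233 and 13821 in Selp-/- 2 and WT 2. The neutrophil and erythroid sums thus also differed between numbers 1 and 2 in both genotypes. The part of these cells in the inhibitor values was not tested, and in bulk RNA fewer cells of a type and less RNA per cell cannot be told apart.

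Probe sets whose levels followed the inhibitors most closely over the 6 arrays were ranked by Pearson correlation, as a description over arrays that share the split by number. For the shared Cdkn1a probe set they were those of Myadm, a myeloid membrane protein (r = 0.997), and Ccr2, a chemokine receptor of monocytes (r = 0.997), and 464 named probe sets exceeded 0.95. Ccr2 measured 8.69, 8.89 and 10.20 in Selp-/-, against 8.31, 8.95 and 10.80 in WT HSC. For Cdkn2c they were Rpl5 and Rpl9, proteins of the large ribosomal subunit (r = 0.999 and 0.998), with 381 probe sets over 0.95. Rpl9 measured 13.06, 13.31 and 12.78 in Selp-/-, against 13.24, 13.23 and 12.73 in WT HSC. The nearest were Pigs and Cd276 for Cdkn2b (0.997 and 0.995), Rtn4r and Rarg for Cdkn2a (0.990 and 0.988), Baz2b and Rab10os for Cdkn1b 10542310 (0.997 and 0.993) and Nudt8 and Ilk for Cdkn2d (0.984 and 0.983). Fewest named probe sets exceeded 0.95 for Cdkn2d, at 22.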

How the data were processed

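Gene expression was measured on 6 Affymetrix whole-transcript mouse arrays, 3 of Selp-/- and 3 of WT HSC, from total RNA that was amplified and labelled with biotin, per the labels' protocols. The authors deposited 1 intensity per probe set on a linear scale, and MAS5 is named without a version, per the submitters' processing notes. All were multiples of 0.5 and array medians differed, so no common scaling was visible. The intensities were corrected with normexp (offset 50), turned to log2 values and quantile normalized with limma 3.58.1 under R 4.3.3. Probe sets under the 40th percentile of the mean level were left out, which kept 17289. The number of arrays limits the precision.

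Genotype, and array number with genotype in the model, were fitted with lmFit and eBayes with a variance trend, two-sided. P-values were adjusted by Benjamini-Hochberg over all tested probe sets at 0.05. Fold changes are Selp-/- minus WT. The main genotype fit held no block, and array number entered as a replicate block only in an alternative run. Deviations from the genotype means correlated at 0.43, 0.53 and 0.81 between arrays numbered 1, 2 and 3. Numbers 1 and 2 were not told apart by these correlations, since Selp-/- 1 with WT 2 gave 0.51 and Selp-/- 2 with WT 1 gave 0.37. Alternatives were the replicate block, median centring, no correction or normalization with log2(value + 16), other filters, no variance trend, the arrays numbered 1 and 2, and leaving out each array. The fits were also run on simulated data whose noise held no shared effect of array number. Such runs do not show what genotype difference could be found in these arrays.

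Probe sets were named by GEO's platform annotation and a RefSeq table of GRCm38.p6. A single symbol was given for 21780 of them, several for 1605 and none for 5430, and the table held 21689 of the single ones. All 6 inhibitor genes matched a promoter entry. The members, lists and contrasts were chosen with earlier results of these data known. Named genes were the inhibitors, Cdkn1c and Cdkn3, the 3 genes of each partner list of smallest p for array number and 2 for genotype, the 2 probe sets most correlated with each inhibitor, Hlf, Mecom, Mcpt8, Cpa3 and Mki67. Genes named beyond this rule are said to be so in the text. Of the cell lists not printed in the report, the test of array number called 1 of 7 dendritic and 3 of 7 megakaryocyte markers higher. It also called 1 of 2 T and NK and 1 of 4 stromal markers higher. Lower calls were 3 of 7 B lymphoid and 3 of 5 endothelial markers. Among all tested probe sets 6.11% were called higher and 6.72% lower.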

Additional observations from a re-analysis of the deposited data

Results flagged for a closer look

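Among 40 probe sets checked, those of the inhibitors and of the partner genes named by rule, Cdkn2d was the one whose array numbered 3 lay beyond both others in each genotype and in opposite directions. That array lay below both others in Selp-/- HSC, at -0.12 relative to their mean, and above both others in WT HSC, at 0.61 (log2 level). The difference between the genotypes in this respect was not tested. Groups of 3 arrays are too small for a check of single outlying values.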

How the results depend on the processing

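No inhibitor passed the test of genotype under any alternative run. The count over all probe sets was 0 with the replicate block and without each array in turn (0 to 0), and 4 in the arrays numbered 1 and 2, and that of the partner genes stayed at 0 (0 to 0). The block changed no call. It left the differences as they were (-0.23 for the shared Cdkn1a probe set) and lowered their SE, and the adjusted p of the 6 then ran from 0.983 to 0.998. Signs of the genotype difference turned without correction or normalization for Cdkn1b 10542310 (0.019) and Cdkn2b (0.031), and in the arrays numbered 1 and 2 for the shared Cdkn1a probe set (0.074), Cdkn2b (0.085) and Cdkn2c (-0.080). Without 1 array the genotype difference ran from -1.01 to 0.86 for the shared Cdkn1a probe set, -0.19 to -0.012 for Cdkn1b 10542310, -0.090 to 0.34 for Cdkn2a, -0.22 to 0.18 for Cdkn2b, -0.34 to 0.26 for Cdkn2c and 0.0053 to 0.32 for Cdkn2d. The sign turned without Selp-/- 1 (0.18), Selp-/- 2 (0.15) or WT 3 for the shared Cdkn1a probe set, without WT 1 or WT 2 (-0.075) for Cdkn2a, without Selp-/- 1 (0.029) or WT 3 for Cdkn2b, and without Selp-/- 1 (-0.0011), Selp-/- 2 (-0.25) or WT 3 for Cdkn2c.

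By array number, 2217 probe sets and 26 partner genes passed, against 5901 and 78 without correction or normalization, which moved the median difference of all probe sets by number to 0.20 and by genotype to 0.11. Of the calls there 82.7% were higher in number 3, against 47.6%. In that setting Cdkn2a (0.59), Cdkn2b (0.59) and Cdkn2d (0.40) passed, and Cdkn1b 10542310 turned to 0.059. Relative to the median these were 0.39, 0.39, 0.20 and -0.14. Without a filter 15 partner genes passed. Without 1 array the counts ran from 1036 to 2153 probe sets and from 9 to 21 partner genes, lowest without WT 3 and next without WT 2 (1288 and 10). Without Selp-/- 1 there were 16 partner genes. The difference by number then ran from 2.36 to 3.27 for the shared Cdkn1a probe set, -0.31 to -0.055 for Cdkn1b 10542310, 0.11 to 0.85 for Cdkn2a, 0.29 to 0.68 for Cdkn2b, -1.02 to -0.77 for Cdkn2c and -0.11 to 0.61 for Cdkn2d, negative without WT 3. Number 2 against number 1, a comparison added after seeing the data, called 87 probe sets and none of the inhibitors, with 0.48 for the shared Cdkn1a probe set, 0.0014 for Cdkn1b 10542310, -0.079 for Cdkn2b and 0.24 for Cdkn2c. The causes were not tested.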

Other observations

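Among the inhibitor genes whose sequences are not printed, the window of Cdkn2d held 5 GC boxes, the start 1 window of Cdkn2a held 3, its start 2 window 1 GC box and 1 E2F motif, and the windows of Cdkn1b and Cdkn2b 1 GC box each. The E2F motif occurs in 1.38% of all windows. No window of the 6 genes held the FOXO or TATA letters searched.

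Mecom, a transcription factor of HSC, measured 8.01 in Selp-/- 3 and 8.16 in WT 3, against 9.78, 10.38, 10.10 and 10.11 in Selp-/- 1, Selp-/- 2, WT 1 and WT 2. Cpa3, a mast cell protease, measured 13.59 in Selp-/- 3 and 14.00 in WT 3, and from 10.10 to 10.63 in the other arrays. The shared Cdkn1a probe set was high in the same pair of arrays as Cpa3. Both arrays of that pair lay above all 4 others for 20.1% of all tested probe sets, so this is not particular to the 2.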
